A study of Mus musculus with 29 samples.

Results

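Elastic fibres give arteries, valves and the cardiac interstitium their recoil. An elastic fibre has a core of cross-linked elastin inside a sheath of microfibrils, which are polymers of fibrillin. Fibulins and elastin interface proteins hold the core on the sheath, lysyl oxidases cross-link the core, and the microfibrils also bind the latent form of transforming growth factor beta. In the heart these proteins are made mainly by fibroblasts, vascular smooth muscle and the cells of the valves and epicardium.

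The genes described here are 10 of the 29955 gene symbols in the deposited mouse heart table, taken by symbol. The choice was made with earlier results of these data known. They are elastin (Eln), the fibrillins Fbn1 and Fbn2, the fibulins Fbln1, Fbln2 and Fbln5, the microfibril-associated proteins Mfap4 and Mfap5, elastin microfibril interfacer 1 (Emilin1), and Efemp1, which encodes fibulin-3. All 10 were in the table, and 9 of them were among the 12759 that were tested because they averaged 0.5 FPKM or more over the libraries. FPKM (fragments per kilobase) correct the fragments of a gene for its length and for the yield of the library. Fbn2 was below that level.

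The mice were male C57BL6 animals, 3 months old at the start, with no genetic change. Intervention mice drank water with salt and L-NAME, which blocks nitric oxide synthesis, for 5 weeks and received angiotensin II by a subcutaneous pump from the end of week 1. These agents raise blood pressure and lead to heart failure (HF). They were then stopped, and recovery was followed to week 19. Hearts were compared at HF week 3 (2 libraries) and HF week 5 (3), at Recovery week 7 (2), week 9 (2), week 11 (3), week 13 (2) and week 19 (5), and in untreated mice at Control week 19 (5). The controls of week 5 were not used here, so comparisons of HF with control also differ in age. The same holds for Recovery weeks 7 to 13 against Control week 19 and for every recovery group against HF week 5. Sample labels give the tissue as whole heart or whole ventricle, whereas the study's methods name frozen apical portions.

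Several libraries stood apart before any comparison. In HF week 3 library 1, 12816 genes were above 0 FPKM, against 16339 to 18091 in the other 23 libraries. The top 10 genes of a library took up 14.6% to 18.8% of its FPKM at weeks 5 and 19, 27.9% to 37.4% at Recovery weeks 7 to 13, and 19.8% and 37.5% in libraries 1 and 2 of HF week 3. Myh6, the alpha myosin heavy chain of adult cardiomyocytes, was listed at 0 in all 13 libraries of Control week 19, HF week 5 and Recovery week 19 and held 37546 to 316195 FPKM in the other 11. Comparisons of HF week 3 or of Recovery weeks 7 to 13 with those 3 groups run along this split, and its part in them was not tested. Cardiomyocyte markers without Myh6 summed to between 21048 and 44387 FPKM, but RNA of atrial, epicardial and fat cells was high in some HF libraries, as given below for each list. Depth is unknown because the table holds no counts, and nothing in the labels ties a column to a particular mouse, so p-values measure the spread between these libraries.

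Promoter sequences were available from RefSeq for 6 of the 10 genes, as 300 bases from 250 before to 50 after an annotated start on GRCm38.p6. Eln, Fbn2, Mfap4 and Mfap5 were not matched. The windows of Fbn1, Emilin1, Fbln2 and Fbln5 are shown because these genes were called in HF at both weeks, and that of Efemp1 because it was called at neither. Of the 2 windows of Fbln5, the one with marked elements is shown. Each is printed 5′ to 3′ on the strand of the gene, and the FPKM were made on another build. Capitals mark matches on either strand to the GC box (GGGCGG), the TATA box (TATAAA), the AP-1 site (TGANTCA) and the box named for its letters, CCAAT.
Fbn1, chr2:125506389-125506688, minus strand: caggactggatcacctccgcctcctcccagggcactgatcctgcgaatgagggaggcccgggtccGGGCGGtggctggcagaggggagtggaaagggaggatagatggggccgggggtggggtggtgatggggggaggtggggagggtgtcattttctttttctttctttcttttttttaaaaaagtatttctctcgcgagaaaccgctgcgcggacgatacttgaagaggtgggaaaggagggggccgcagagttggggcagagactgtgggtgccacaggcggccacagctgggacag
Emilin1, chr5:30913536-30913835, plus strand: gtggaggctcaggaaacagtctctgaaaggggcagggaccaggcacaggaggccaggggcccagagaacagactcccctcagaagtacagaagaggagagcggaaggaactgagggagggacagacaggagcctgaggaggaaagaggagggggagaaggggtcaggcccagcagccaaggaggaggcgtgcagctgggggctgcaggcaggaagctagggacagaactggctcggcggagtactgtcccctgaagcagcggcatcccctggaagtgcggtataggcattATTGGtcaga
Fbln2, chr6:91212514-91212813, plus strand: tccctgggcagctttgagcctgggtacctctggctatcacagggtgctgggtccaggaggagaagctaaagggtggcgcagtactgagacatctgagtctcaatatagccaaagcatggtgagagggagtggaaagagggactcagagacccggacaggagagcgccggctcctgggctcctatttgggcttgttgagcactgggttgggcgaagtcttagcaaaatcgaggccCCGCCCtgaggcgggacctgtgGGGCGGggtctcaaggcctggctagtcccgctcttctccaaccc
Fbln5, chr12:101819070-101819369, minus strand: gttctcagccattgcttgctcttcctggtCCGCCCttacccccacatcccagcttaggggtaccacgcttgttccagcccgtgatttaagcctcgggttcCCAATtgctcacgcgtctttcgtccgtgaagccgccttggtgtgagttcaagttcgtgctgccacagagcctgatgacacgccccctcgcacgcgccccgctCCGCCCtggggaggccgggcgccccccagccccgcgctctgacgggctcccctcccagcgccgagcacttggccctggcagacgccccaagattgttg
Efemp1, chr11:28852955-28853254, plus strand: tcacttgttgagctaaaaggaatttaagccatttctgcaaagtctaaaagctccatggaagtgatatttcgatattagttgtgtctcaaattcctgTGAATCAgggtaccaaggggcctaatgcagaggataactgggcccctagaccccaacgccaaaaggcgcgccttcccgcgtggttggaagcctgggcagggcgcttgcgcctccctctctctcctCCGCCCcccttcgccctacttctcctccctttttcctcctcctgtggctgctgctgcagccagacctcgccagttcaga
No marked element was in all 5 windows. The 6 genes have 8 windows, and shares are given by window. A GC box was in 5 of the 8 (of Efemp1, Fbln1, Fbln2, Fbln5 and Fbn1), against 35.7% of all 32851 promoter windows. A CCAAT box was in 2 of the 8 (of Emilin1 and Fbln5), against 37.4%, and an AP-1 site in that of Efemp1 alone, against 7.81%. No window held the TATA box, which 13.6% of all windows hold, or a CArG box, the element bound by serum response factor, which 1.63% hold. An E box (CANNTG) was in 7 of the 8 windows, with all 6 genes among them, against 72.3% of all windows. The CAGA box of Smad proteins (CAGACA) was in 4 of the 8 (of Emilin1, Fbln1 and Fbln5), against 21%. These letter matches are descriptions of sequence, and binding was not measured.

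The first question was how the elastic fibre genes stood at the end of heart failure induction. Of the 9 genes tested, 7 rose in HF week 5 relative to Control week 19 and none fell. They were Mfap4, Mfap5, Fbln1, Fbn1, Fbln5, Fbln2 and Emilin1, and their rise ranged from 1.33-fold for Emilin1 to 3.91-fold for Mfap4. Of all genes tested, 11.6% were called higher and 12.4% lower at the same threshold (limma, Benjamini-Hochberg adjusted p under 0.05). All libraries of HF week 5 lay above all those of Control week 19 for the same 7 genes, against 14.8% of all genes. Over the 9 genes the median log2 fold change was 0.73, against 0.04 over all genes. Fold changes here and below are on the log2(FPKM + 0.5) scale, which understates changes of low genes. In bulk tissue, more cells of a type and more RNA per cell cannot be told apart.

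**Figure D1:**
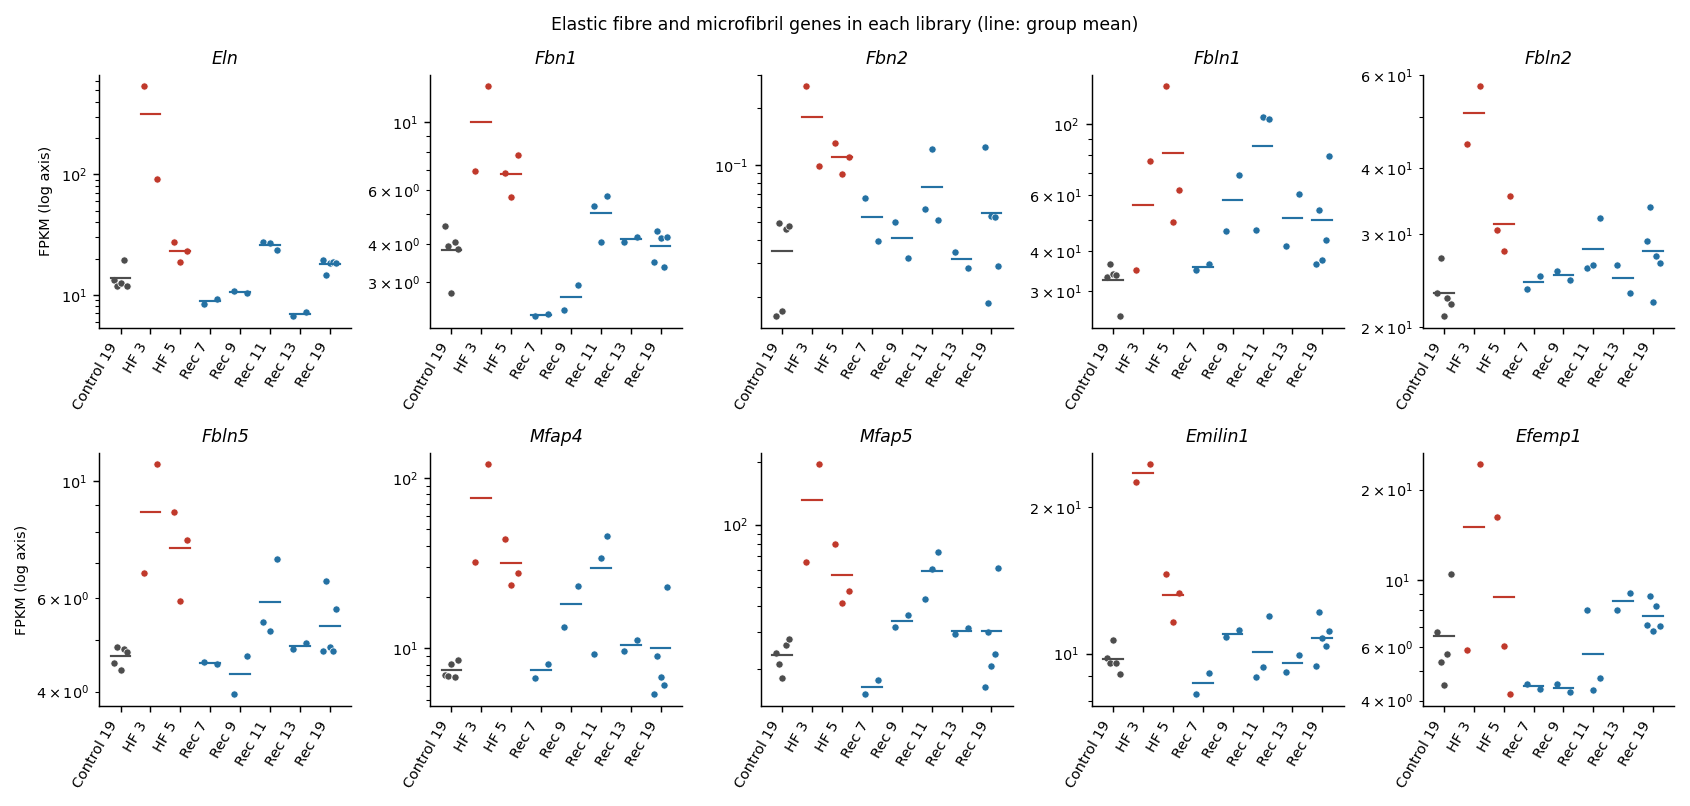
FPKM of the 10 genes (log axes, 1 panel for each gene) in the 24 libraries by group, in grey for Control week 19, red for HF and blue for recovery, with a line at each group mean. The HF week 5 points lie above all control points for Fbn1, Fbn2, Fbln1, Fbln2, Fbln5, Mfap4, Mfap5 and Emilin1, and the Eln value of 541 in HF week 3 library 1 is the highest of that gene.

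Elastin itself was the most variable of the 10. Eln was at 13.2, 11.9, 12.6, 19.3 and 11.8 FPKM in libraries 1 to 5 of Control week 19 and at 27.3, 18.6 and 23.3 FPKM in those of HF week 5. The lowest HF value was just under the highest control value. The log2 difference was 0.73 ± 0.33 (SE; adjusted p = 0.113, limma), short of the threshold. At HF week 3 the libraries held 541 and 92.4 FPKM, both far above every other library in the series. This was 4.00 ± 0.378 above control on the log2 scale (adjusted p = 2.37e-07, limma) and 3.27 ± 0.412 above HF week 5 (adjusted p = 0.000129). The wide gap between those libraries enters the spread that all groups share. With either of them left out, Eln at week 5 passed the threshold (adjusted p = 0.00106 without library 1 and 0.00105 without library 2) with the same log2 difference of 0.73. The week 3 difference itself was 2.73 without library 1 and 5.27 without library 2, and was called in both fits.

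In order of group means, Eln stood at 317 ± 318 FPKM (SD, n = 2) in HF week 3, 26.0 ± 2.1 (n = 3) in Recovery week 11, 23.1 ± 4.32 (n = 3) in HF week 5 and 18.0 ± 1.9 (n = 5) in Recovery week 19. Then came Control week 19 at 13.8 ± 3.16 FPKM (n = 5), Recovery week 9 at 10.6 ± 0.352 (n = 2), Recovery week 7 at 8.85 ± 0.565 (n = 2) and Recovery week 13 at 6.93 ± 0.392 (n = 2). Libraries of neighbouring groups overlapped between Recovery week 11 and HF week 5, between HF week 5 and Recovery week 19, and between Recovery week 19 and control. The other neighbours did not overlap, with 2 to 5 libraries in each group.

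The fibrillins form the microfibril scaffold. Fbn1 was at 4.56, 3.92, 2.75, 4.04 and 3.85 FPKM in the controls and at 6.84, 5.68 and 7.79 in HF week 5. Every HF value was above every control value, with a log2 difference of 0.75 ± 0.175 (adjusted p = 0.00461, limma). In HF week 3 its libraries held 6.91 and 13.1 FPKM, a log2 difference of 1.23 ± 0.2 from control (adjusted p = 7.32e-05). Fbn2, the fibrillin of developing tissue, was between 0.0158 and 0.262 FPKM in all 24 libraries. It was at 0.131, 0.089 and 0.11 FPKM in HF week 5 and at most 0.0489 in the controls, so the groups did not overlap at levels far under the pseudocount of 0.5. It was therefore left untested, and in a fit with no filter its log2 difference was 0.19 (adjusted p = 0.0664, limma).

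Among the fibulins, Fbln1 changed most. Its control values were 33.1, 36.4, 33.8, 33.6 and 25.0 FPKM, and those of HF week 5 were 132, 49.2 and 62.0. The log2 difference was 1.19 ± 0.333 (adjusted p = 0.0145, limma), and library 1 was far above the others. Without library 1 the difference was 0.77 (adjusted p = 0.153). Fbln5, which links tropoelastin to microfibrils and to lysyl oxidase-like enzymes, was between 4.40 and 4.85 FPKM in the 5 controls and at 8.75, 5.94 and 7.76 in HF week 5. Its groups were well apart, with a log2 difference of 0.61 ± 0.147 (adjusted p = 0.00583). Fbln2, found in elastic fibres and basement membranes, was between 21.0 and 27.1 FPKM in the controls and at 30.5, 27.9 and 35.5 in HF week 5, a log2 difference of 0.42 ± 0.128 (adjusted p = 0.0226). Efemp1 spread widely, at 16.2, 6.07 and 4.19 FPKM in HF week 5 against 4.50 to 10.5 in the controls. Its log2 difference was 0.24 (95% interval -0.54 to 1.02, adjusted p = 0.679), and without library 1 it was -0.29.

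The microfibril-associated proteins gave the largest differences at week 5. Mfap4 binds tropoelastin and fibrillin and was at 6.97, 6.94, 8.14, 6.79 and 8.54 FPKM in the controls and at 43.7, 23.7 and 27.7 in HF week 5. Even the lowest HF library was well above every control, and the log2 difference was 1.97 ± 0.47 (adjusted p = 0.0056, limma), a 3.91-fold rise. Mfap5, known as MAGP-2, was at 23.9, 21.0, 17.9, 25.9 and 27.8 FPKM in the controls and at 80.6, 41.8 and 47.7 in HF week 5, a log2 difference of 1.22 ± 0.353 (adjusted p = 0.017). Emilin1 sits where elastin meets the microfibrils and was between 9.08 and 10.7 FPKM in the controls and at 14.6, 11.6 and 13.4 in HF week 5. Its rise was small and even across libraries, at 0.41 ± 0.106 on the log2 scale (adjusted p = 0.00847).

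**Figure D2:**
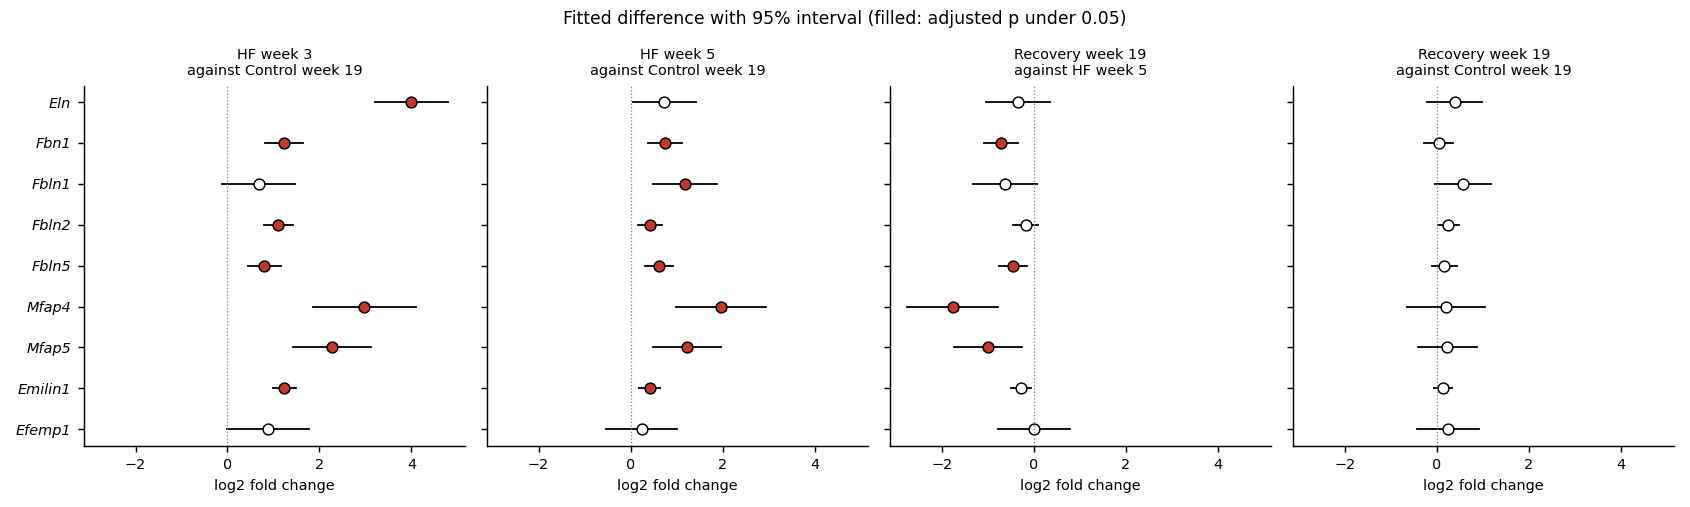
Fitted log2 fold changes of the 9 genes tested, with 95% intervals, in 4 comparisons; filled points have an adjusted p under 0.05. Filled points number 7, 7, 4 and 0 from left to right, and Eln at HF week 3 lies at 4.00.

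HF week 5 library 1 carried part of these calls. Without it, 2 of 9 genes were called higher (Fbn1 and Mfap4), against 4.21% of all genes. Without that library and without the HF week 3 libraries, 6 were called (Eln, Emilin1, Fbln2, Fbln5, Fbn1 and Mfap4), against 8.86%. With library 3 as the only one of HF week 5, none was called, against 1.07% of all genes, while the log2 differences of Mfap4 (1.83), Mfap5 (1.03), Fbn1 (0.95), Fbln1 (0.94), Fbln5 (0.68), Fbln2 (0.61) and Emilin1 (0.44) stayed above 0.

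Markers of other tissue moved with the HF groups. Summed over the epicardial and mesothelial markers (Wt1, Upk3b, Upk1b, Msln, Krt19 and Krt8), HF week 5 libraries 1 to 3 held 89.3, 34 and 12 FPKM and HF week 3 libraries 82.5 and 251, against 1.99 to 3.35 in the controls and 1.07 to 3.44 in recovery. The atrial markers (Myl7, Myl4, Sln, Bmp10 and Mybphl) summed to 40217, 421 and 15.7 FPKM in HF week 5 and to 7809 and 14271 in HF week 3, against 4.89 to 8.57 in the controls. Nppa, also on the atrial list, is left out of these sums. It was listed at 0 FPKM in both HF week 3 libraries, against 81.1 to 345 in the controls, and was called lower there. The reason for this 0 was not tested. Fat cell markers (Adipoq, Cfd and Plin1) summed to 227, 209 and 1.37 FPKM in HF week 5 and to 211 and 93.4 in HF week 3, against at most 0.31 in the controls. Of the genes that define these cells, Upk3b was at 22.5, 7.80 and 3.39 FPKM in HF week 5 and at most 0.159 in the controls, and Myl7 at 18388, 152 and 6.16 FPKM against at most 1.12. Between HF week 5 and control, 5 of 6 epicardial and 5 of 5 tested atrial markers (Nppa included) were called higher. Of the 3 fat markers tested, Adipoq and Cfd were called higher, and Fabp4, which the sums leave out, was not. Plin1 was not tested. Among all genes 11.6% were called higher. Without HF week 5 library 1, 5 epicardial, 5 atrial and 2 fat markers were called higher, against 4.21% of all genes. Library 3 of HF week 5 held the least of all 3 lists in its group, though more than any control. In that library Mfap4 was at 27.7 FPKM, Mfap5 at 47.7 and Fbn1 at 7.79, all above every control. The part of epicardial, atrial and fat tissue in this and the other HF libraries was not tested.

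Lists of cell types that make elastic fibres also differed. Fibroblast markers summed to 650, 335 and 573 FPKM in HF week 5 against 236 to 329 in the controls, and 5 of 8 were called higher. The share called higher among all genes was 11.6%. Vascular smooth muscle markers summed to between 207 and 299 FPKM against 158 to 194, with 3 of 6 called higher, and endothelial markers to between 375 and 477 against 277 to 328, with 2 of 6 called. Markers of valve and cartilage-like cells (Acan, Col2a1, Cytl1, Sox9 and Prg4) summed to 180, 52.8 and 49.3 FPKM against 15.8 to 21.0, with 2 of 3 tested genes called higher. None of the 6 macrophage and leukocyte markers was called, and 1 of the 7 cardiomyocyte markers other than Myh6 (Pln) was called lower. Without HF week 5 library 1, 1 fibroblast marker (Postn) and 1 smooth muscle marker (Acta2) were called higher, against 4.21% of all genes. So were 2 endothelial markers (Egfl7 and Tie1) and 2 valve and cartilage-like markers (Cytl1 and Prg4). The share of the elastic fibre differences that goes with these cell types was not tested.

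**Figure D3:**
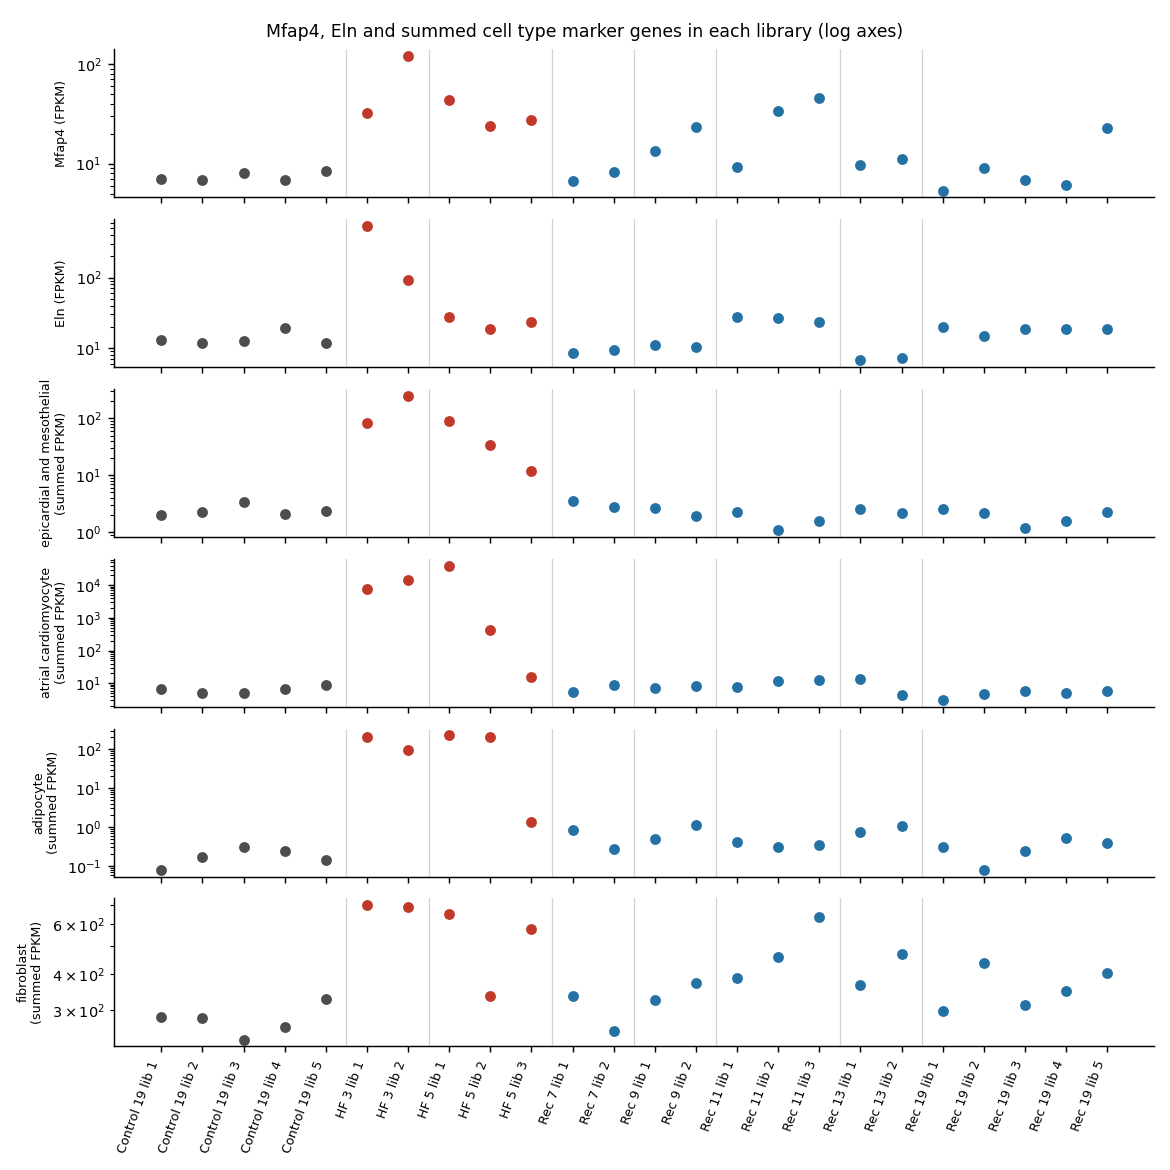
FPKM of Mfap4 and Eln and summed FPKM of 4 marker lists in each of the 24 libraries (log axes; grey for control, red for HF, blue for recovery; atrial sums leave out Nppa and fat sums leave out Fabp4). Atrial and fat sums are high in the HF libraries except library 3 of week 5, with 15.7 and 1.37 FPKM, while Mfap4 is at 27.7 FPKM there.

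At HF week 3, 7 of the 9 genes were called higher than in Control week 19, against 23.1% of all genes (27.6% were lower). Here Eln was called and Fbln1 was not. Mfap4 was at 31.9 and 120 FPKM, 2.98 ± 0.539 above control on the log2 scale (adjusted p = 0.000194, limma), and Mfap5 at 65.7 and 196, 2.28 ± 0.404 above (adjusted p = 0.000161). The libraries differed about as much from each other as the lower of them did from control. Emilin1 was more even, at 22.6 and 24.5 FPKM, and 1.23 ± 0.121 above control (adjusted p = 3.62e-07). Fbln2 was at 44.5 and 57.2 FPKM and Fbln5 at 6.71 and 10.8, with log2 differences of 1.11 and 0.80. For Fbln1 (35.0 and 76.3 FPKM, adjusted p = 0.144) and Efemp1 (5.86 and 24.2 FPKM, adjusted p = 0.0911) the lower library lay inside the range of the controls. Without library 1, the one with few genes above 0, 8 of 9 were called, Efemp1 included, against 14.5% of all genes.

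Eln, Emilin1 and Fbln2 were higher at HF week 3 than at HF week 5, 3 of the 9 genes, against 8.28% of all genes. The log2 differences were 3.27 for Eln, 0.82 ± 0.132 for Emilin1 (adjusted p = 0.00103, limma) and 0.69 ± 0.16 for Fbln2 (adjusted p = 0.0104). In a fit of those 5 libraries alone none of the 3 was called.

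The next question was what had become of these genes by the end of recovery. In Recovery week 19, 4 of 9 were lower than in HF week 5 (Mfap4, Mfap5, Fbn1 and Fbln5) and none was higher, against 12% lower and 12.3% higher among all genes. Mfap4 was at 5.37, 9.04, 6.84, 6.14 and 22.9 FPKM, with a log2 difference from HF week 5 of -1.77 ± 0.47 (adjusted p = 0.0109, limma). Only library 5 came near the HF values, and the other 4 were in or close to the range of the controls. Fbn1 was at 3.48, 4.40, 4.17, 3.35 and 4.20 FPKM, all under the lowest HF value, with a difference of -0.71 ± 0.175 (adjusted p = 0.00651). Mfap5, at 16.2, 30.0, 20.5, 23.4 and 61.8 FPKM, overlapped with HF through library 5, and its difference was -0.99 ± 0.353 (adjusted p = 0.0458). This call was kept in 13 of 35 alternatives, with an adjusted p of up to 0.443. Fbln5 was between 4.77 and 6.47 FPKM, with a difference of -0.45 ± 0.147 (adjusted p = 0.0321), called in 26 of the 35. Only Mfap4 and Fbn1 had all 5 libraries under those of HF week 5, 2 of 9 genes against 12.7% of all genes.

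For the other 5 genes the difference between Recovery week 19 and HF week 5 missed the threshold. Emilin1 was closest, at -0.28 (95% interval -0.50 to -0.06, adjusted p = 0.0637, limma). Fbln1 differed by -0.62 (interval -1.31 to 0.08), Eln by -0.34 (-1.03 to 0.35), Fbln2 by -0.17 (-0.44 to 0.09) and Efemp1 by 0.01 (-0.77 to 0.79). Without HF week 5 library 1, Fbn1 alone was called lower, against 5.27% of all genes. With HF week 5 library 3 or Recovery week 19 library 1, 3 or 4 left out, 2 genes were called. The shares of all genes called in the latter fits are not given here.

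Recovered hearts were then set against controls of the same age. None of the 9 genes was called between Recovery week 19 and Control week 19, in a comparison that called 0.0235% of all genes (limma). At an unadjusted p under 0.05, Fbln2 passed, against 2.88% of all genes. All 9 fitted differences were above 0, from 0.04 for Fbn1 to 0.57 for Fbln1, with a median of 0.23 against -0.01 over all genes. The intervals still allow sizeable differences: that of Eln ran from -0.20 to 0.99, that of Fbln1 from -0.03 to 1.17 and that of Mfap4 from -0.65 to 1.05, whereas that of Fbn1 ran from -0.28 to 0.35.

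**Figure D4:**
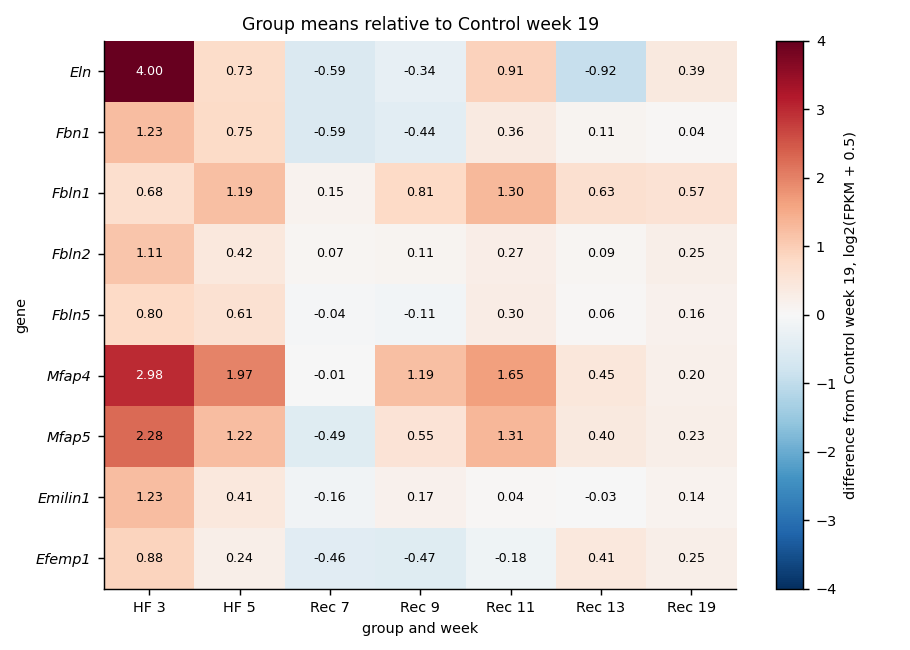
Fitted difference of each group mean from Control week 19 on the log2(FPKM + 0.5) scale for the 9 genes tested (rows) in HF weeks 3 and 5 and Recovery weeks 7 to 19 (columns), red for higher and blue for lower. Mfap4 goes from 1.97 at HF week 5 to -0.01 at Recovery week 7, 1.65 at week 11 and 0.20 at week 19.

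Between those ends the course was uneven. At Recovery week 7, soon after the agents were stopped, 6 of 9 genes were lower than at HF week 5 (Eln, Emilin1, Fbln5, Fbn1, Mfap4 and Mfap5), against 6.75% of all genes. Mfap4 was at 6.69 and 8.16 FPKM and Mfap5 at 14.97 and 17.56, with log2 differences from HF week 5 of -1.98 and -1.71. Fbn1 was at 2.32 and 2.36 FPKM, under every control, with a log2 difference from HF week 5 of -1.35 ± 0.218 (adjusted p = 0.00106, limma). Without HF week 5 library 1, 2 genes were called at this time, and fewer were also called without either Recovery week 7 library. The shares of all genes called in those fits are not given here.

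By week 9 fewer genes stood apart from heart failure. Fbln5 and Fbn1 were lower than in HF week 5 at Recovery week 9, against 2.49% of all genes, and Eln and Emilin1 at week 13, against 5.27%. These calls rested on few libraries. The shares of all genes called with a library left out are not given here, so the counts below cannot be set against all genes. At week 9, 1 gene was called without HF week 5 library 1 or 3 or Recovery week 9 library 2, and none without Recovery week 9 library 1. At week 13 none was called without HF week 5 library 1 or without either Recovery week 13 library, and 4 were called without either library of HF week 3. A further 8 libraries each left 1 gene at week 13 when removed, HF week 5 library 3 and control libraries 1, 2 and 4 among them. At week 11 no gene was called lower (4.26% of all genes). Emilin1 alone passed at an unadjusted p there, against 25.3% of all genes. It was at 8.96, 9.39 and 11.9 FPKM, with a log2 difference of -0.37 from HF week 5 (adjusted p = 0.0515).

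Recovery week 11 held the highest levels of the recovery phase for several genes. Mfap4 was at 9.34, 34.0 and 45.3 FPKM, Mfap5 at 43.5, 60.9 and 73.8, and Fbln1 at 46.6, 105 and 104. Libraries 2 and 3 were thus as high as those of HF week 5, while library 1 was lower for Mfap4 and Fbln1. Eln, at 27.3, 27.0 and 23.5 FPKM, was high in all 3 libraries. Against Control week 19 the log2 differences were 1.65 ± 0.47 for Mfap4, 1.31 ± 0.353 for Mfap5, 1.302 ± 0.333 for Fbln1 and 0.91 ± 0.33 for Eln. None passed after adjustment (adjusted p = 0.191, 0.166, 0.139 and 0.372, limma), in a comparison that called 0.149% of all genes. At an unadjusted p these 4 passed, against 8.45% of all genes. Fibroblast markers summed to 386, 459 and 634 FPKM and macrophage and leukocyte markers to 389, 306 and 415 FPKM in these 3 libraries, all above the controls at 236 to 329 and at 175 to 278, and their part in the values was not tested. After adjustment, 2 genes were called without Recovery week 11 library 1, and the share of all genes called in that fit is not given here.

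At weeks 7, 9 and 13 no gene was called against Control week 19 either, where 0.047%, 0.0549% and 0.0784% of all genes were called (limma). At an unadjusted p, Fbn1 passed at week 7 (lower; 3.61% of all genes), Fbn1 (lower), Fbln1 and Mfap4 (higher) at week 9 (3.6%), and Eln (lower) at week 13 (10.4%). Set against the mean of the 4 earlier recovery times, Recovery week 19 had no called gene, with 0.0392% called among all genes, and Eln alone passed unadjusted with a difference of 0.62 (7.33%). The recovery libraries of weeks 7 to 13 had a larger share of FPKM in their top 10 genes than those of weeks 5 and 19, as did both libraries of HF week 3. What that adds to the lower Eln and Fbn1 values there was not tested.

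Pairs of related genes were also compared by the ratio of their FPKM + 0.5 within a library, in which a common scale of that library cancels for genes far above the 0.5 that was added. The log2 ratio of Mfap5 to Mfap4 was 1.57 ± 0.29 (SD, n = 5) in Control week 19, 0.82 ± 0.0525 (n = 3) in HF week 5 and 1.59 ± 0.172 (n = 5) in Recovery week 19. No HF week 5 value overlapped with those groups, so Mfap4 was higher relative to Mfap5 in each of its 3 libraries. Low ratios were not limited to HF week 5. The untested groups stood at 1.03 and 0.71 in HF week 3, 1.10 and 1.06 in Recovery week 7 and 1.21 and 0.64 in week 9. Recovery week 11 stood at 2.16, 0.83 and 0.70, and week 13 at 1.56 and 1.46. With 3 against 5 libraries the exact permutation test reaches p = 0.0179 at best, and that was the p of both comparisons with HF (two-sided; adjusted p = 0.0536 over 15 tests). Over 15 tests, an adjusted p under 0.05 would have taken 6 tests at that p or lower, and 5 reached it.

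**Figure D5:**
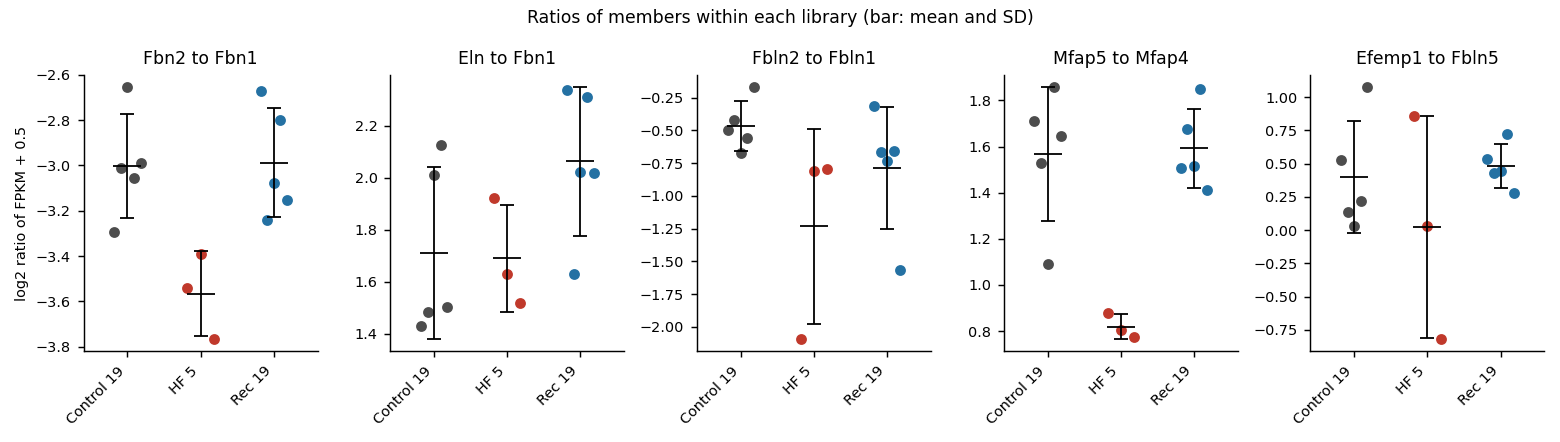
Log2 ratios of FPKM + 0.5 within each library for 5 pairs of genes in Control week 19 (grey), HF week 5 (red) and Recovery week 19 (blue), with the mean and SD of each group in black. The Mfap5 to Mfap4 ratio lies at 0.82 in HF week 5 against 1.57 and 1.59 in the other groups.

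The log2 ratio of Fbln2 to Fbln1 was -0.47 ± 0.189 (n = 5) in the controls and -1.23 ± 0.744 (n = 3) in HF week 5 (exact permutation p = 0.0179, adjusted p = 0.0536), and -0.79 ± 0.465 (n = 5) in Recovery week 19 (exact permutation p = 0.304 against HF week 5). HF week 5 library 1 stood at -2.09 and the other 2 at -0.81 and -0.80, and without library 1 the difference from control was -0.34 in place of -0.77. Eln to Fbn1 was almost level between control and HF week 5, at 1.71 ± 0.33 and 1.69 ± 0.207, and stood at 2.06 ± 0.286 in Recovery week 19 (exact permutation p = 0.0794 against control, adjusted p = 0.198). Efemp1 to Fbln5 did not pass in any of the 3 comparisons, with exact permutation p between 0.286 and 0.690. Fbn2 to Fbn1 differed by -0.56 between HF week 5 and control (exact permutation p = 0.0179), but Fbn2 lies under the pseudocount, so the value follows Fbn1.

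The proteins around these genes were taken from lists of elastic fibre biology. Of the other elastic fibre proteins, 5 of 9 tested rose in HF week 5 and none fell, against 11.6% higher and 12.4% lower among all genes. Their median log2 fold change was 0.55. Ltbp2, a latent transforming growth factor binding protein that resides in microfibrils, was at 6.50, 3.24 and 3.22 FPKM against 0.42 to 0.678 in the controls, a log2 difference of 2.13 ± 0.48 (adjusted p = 0.00388, limma). The others were Mfap2, known as MAGP-1 (0.86), Efemp2, fibulin-4 (0.76), Ltbp3 (0.60) and Mmrn2, an emilin family protein of endothelium (0.55). In Recovery week 19, 4 of the 9 were lower than in HF week 5 (Efemp2, Ltbp2, Ltbp3 and Mmrn2), against 12% of all genes. Without HF week 5 library 1, Ltbp2 and Mmrn2 were called higher in HF week 5, against 4.21% of all genes. At HF week 3, Emilin2 (-0.81) and Mmrn1 (-1.03) were called lower than in control, against 27.6% of all genes. Mmrn1 was at 0 and 1.31 FPKM there. The other genes tested of this list were called higher at HF week 3, against 23.1% of all genes.

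Of the genes for cross-linking and assembly, 5 of 12 tested were higher in HF week 5, against 11.6% of all genes. None was lower, against 12.4%. Adamtsl2, a secreted protein that binds fibrillin, was at 19.5, 15.5 and 22.8 FPKM against 5.30 to 7.94 in the controls, a log2 difference of 1.49 ± 0.219 (adjusted p = 0.000172, limma). It was lower again in Recovery week 19, with a log2 difference of -1.25 from HF week 5. Biglycan (Bgn, 1.26), fibronectin (Fn1, 1.17), the microfibril-binding protease Adamts10 (1.06) and lysyl oxidase (Lox, 0.57) made up the rest in HF. Bgn, Fn1 and Adamts10 were lower again in Recovery week 19, and Lox was not called (-0.10). At HF week 3, 10 of the 12 were called higher, with Lox at 1.91, against 23.1% of all genes. Without HF week 5 library 1, Adamtsl2 and Fn1 were called higher at week 5, against 4.21% of all genes.

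Of the 6 elastin-degrading proteases tested, only the cathepsin Ctsl was called higher in HF week 5 (0.35), against 11.6% of all genes. The median over the 6 was 0.32, and none was called in Recovery week 19 against HF week 5. At HF week 3, 5 of the 6 were called higher than in control, against 23.1% of all genes. They were the cathepsins Ctsk (1.22) and Ctsl (0.45) and the matrix metalloproteinases Mmp14 (1.27), Mmp2 (1.23) and Mmp9 (0.96). Their inhibitors went both ways at week 5. Of the 5 tested, Timp1 (1.89) and Timp2 (0.68) were higher in HF week 5, against 11.6% of all genes. Timp3 (-0.98) and Timp4 (-0.73), the latter an inhibitor abundant in heart muscle, were lower, against 12.4%. At HF week 3, Timp1 (4.67) and Timp2 (1.15) were called higher than in control, against 23.1%, and no inhibitor was called lower. In Recovery week 19, Timp1 was lower than in HF week 5 (-2.03), against 12% of all genes. Timp3 (1.45) and Timp4 (0.88) were higher, against 12.3%. Of the 8 receptor genes tested, the integrin subunits Itgb3 (0.97), Itgav (0.66) and Itgb5 (0.35) were higher in HF week 5, against 11.6% of all genes. Itgb3 and Itgav were lower again at Recovery week 19. At HF week 3, the receptor gene Ctsa (-0.73) was called lower than in control, against 27.6% of all genes. Itgb3, Itga5, Itgav and Itgb5 were called higher, against 23.1%. Between Recovery week 19 and Control week 19 no gene of the 5 lists was called. Without HF week 5 library 1, no protease or receptor was called in HF week 5, and of the inhibitors Timp3 alone. In that fit, Recovery week 19 differed from HF week 5 by lower Adamtsl2 and Fn1 and by higher Timp3, Timp4 and Emilin2.

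The genes closest to elastin in their group means were Mt2, a metallothionein, A130040M12Rik and Grrp1. Their group means differed from that of Eln, each taken relative to Control week 19, by a mean of 0.32, 0.42 and 0.43 on the log2 scale over 7 groups. All were high in HF week 3, with Mt2 at 3.77 and Eln at 4.00, but they parted in recovery. Mt2 stood at 0.19 in Recovery week 13, where Eln was at -0.92. Grrp1 stood at -0.17 in Recovery week 11, where Eln was at 0.91. For Mfap4, which was chosen for this comparison after its values were seen, the closest were Thbs4, a thrombospondin of the extracellular matrix (0.20), Igfbp6, which binds insulin-like growth factors (0.24), and Mgp, matrix Gla protein, an inhibitor of calcification (0.24). Thbs4 stood at 2.13 in HF week 5, -0.39 in Recovery week 7, 1.38 in Recovery week 11 and 0.22 in Recovery week 19, relative to control.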

How the data were processed

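RNA of mouse hearts, enriched for poly(A) tails, was sequenced from both ends. The authors aligned the reads to MGSCv37 (mm9) with TopHat and computed the deposited FPKM with Cuffdiff, 1 column for each library. The annotation, library type and scaling between libraries are not given in the sources used here. Of the 29 columns, 24 were used. The 5 columns of Control week 5 were left out, since GEO labels 4 samples of that group. Recovery week 9 has 2 columns for 3 labelled samples.

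Genes averaging 0.5 FPKM or more were kept and log2(FPKM + 0.5) was modelled in limma (version 3.58.1, R version 4.3.3) with 8 group means, 16 residual degrees of freedom, eBayes with a trend, two-sided tests and Benjamini-Hochberg adjustment over 12759 genes. The steps were tested on simulated data. Ratios were tested by exact permutation over libraries. Figures and tables used Python 3.11.15 with pandas 2.3.3, scipy 1.17.1 and matplotlib 3.10.9.

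The 10 genes, the 5 lists of related genes and the marker lists were chosen with earlier results of these data known. All 10 are named, and of the lists some of those called or at the ends of the range, with many called at HF week 3 not named. Alternatives were pseudocounts of 0.1 and 1, no filter or a mean of at least 1, only the groups compared, median centring, quantile normalization, robust eBayes, unadjusted p, no HF week 3 libraries and each library left out. Fits with HF week 5 library 3 alone, and without HF week 3 and HF week 5 library 1, were added after the data were seen.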

Additional observations from a re-analysis of the deposited data

Results flagged for a closer look

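In groups of 5 libraries, 30 tests set a highest or lowest value against the other 4. By Dixon's criterion 3 values stood apart, where chance gives about 1.5, and all 3 were FPKM of elastic fibre genes. Mfap4 was at 22.95 FPKM in Recovery week 19 library 5, far above the others at 5.374 to 9.045. Eln was at 14.67 FPKM in Recovery week 19 library 2, under the others at 18.44 to 19.61. Eln was at 19.33 FPKM in Control week 19 library 4, above the others at 11.83 to 13.15.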

How the results depend on the processing

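No paired analysis was possible because the columns carry no replicate letters that match the labelled samples. With the week 5 libraries of HF reduced to library 3, 0 genes were called in HF week 5 against Control week 19, in Recovery week 19 against HF week 5, and at Recovery weeks 9 and 13 against HF week 5, and 1 at Recovery week 7. With only the groups compared in the fit, the counts were 2 for Recovery week 19 against HF week 5, 2 for Recovery week 11 and 1 for Recovery week 13 against control, 0 for HF week 3 against HF week 5, 3, 0 and 0 for Recovery weeks 7, 9 and 13 against HF week 5, and 1 for Recovery week 19 against the earlier recovery. Median centring gave 2 for Recovery week 19 and 1 for Recovery week 13 against HF week 5. At an unadjusted p, 1 gene was called at Recovery weeks 7, 13 and 19, 3 at week 9 and 4 at week 11 against control, 5 for HF week 3 and Recovery week 13 against HF week 5, and 1 each for Recovery week 11 against HF week 5 and for Recovery week 19 against the earlier recovery. A mean of at least 1 FPKM, quantile normalization and robust eBayes each gave 1 for Recovery week 11 against HF week 5. Without the HF week 3 libraries the counts were 1 for Recovery weeks 11 and 13 against control, 1 and 4 for the same weeks against HF week 5, and 1 for Recovery week 19 against the earlier recovery. With HF week 5 library 1 left out as well they were 2 for Recovery week 19 against HF week 5, 3 and 1 for Recovery weeks 11 and 13 against control, and 1 for Recovery week 19 against the earlier recovery. Shares of all genes called under these settings are not given here.

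With single libraries removed, 2 to 8 genes were called for HF week 5 and 7 to 8 for HF week 3 against control, 3 to 4 for HF week 3, 1 to 7 for Recovery week 7, 0 to 3 for week 9, 0 to 1 for week 11, 0 to 4 for week 13 and 1 to 5 for week 19 against HF week 5, 0 to 2 for Recovery week 11 and 0 to 1 for week 13 against control, and 0 to 1 for Recovery week 19 against the earlier recovery. Where this left a group with 1 library, that library was taken to vary like the other groups. Shares of all genes called are not given beside these counts. Signs turned only for values that were not called. With a library removed, the log2 difference of Efemp1 ranged from -0.29 to 0.63 in HF week 5 and from -0.10 to 1.86 in HF week 3 against control, and from -0.38 to 0.54 in Recovery week 19 against HF week 5. It was -0.53 in HF week 5 with library 3 alone and -0.29 without library 1 and HF week 3. Recovery week 19 against control ranged from -0.060 to 0.0995 for Fbn1, from -0.14 to 0.36 for Mfap4 and from -0.065 to 0.41 for Mfap5, the lowest without control library 3 for Fbn1 and without recovery library 5 for the others. Among the log2 ratios, Fbn2 to Fbn1 (from -0.066 to 0.0999), Mfap5 to Mfap4 (from -0.094 to 0.09762) and Efemp1 to Fbln5 (from -0.0063 to 0.255) turned at Recovery week 19 against control, and Eln to Fbn1 (from -0.136 to 0.083) and Efemp1 to Fbln5 (from -0.7904 to 0.045) in HF week 5 against control. At a pseudocount of 1, Fbn2 to Fbn1 was -0.0063 and Eln to Fbn1 0.022 in those comparisons. The cause was not tested. Without counts, depth sets no stated limit here, and with 2 to 5 libraries in a group the spread between them limits every comparison.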

Other observations

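Among the 14 recovery libraries, the 4 with the highest Mfap4 were Recovery week 11 libraries 3 and 2, Recovery week 9 library 2 and Recovery week 19 library 5, at 45.3, 34.0, 23.2 and 22.9 FPKM. These were also the 4 highest for Fbln1, for Ltbp2, at 5.85, 5.84, 5.08 and 2.99 FPKM, and for periostin (Postn), a matrix protein of activated fibroblasts, at 16.3, 10.4, 9.93 and 7.66 FPKM. The natriuretic peptide gene Nppa, a marker of stress in ventricular muscle, was at 1421, 1188, 2426 and 746 FPKM in them, ranks 2, 3, 1 and 5 of the 14. Mfap5 ranked 1, 3, 5 and 2 in them and Timp1 ranked 3, 4, 6 and 2. This was noticed after the values were seen and was not tested. In the same order, fibroblast markers summed to 634, 459, 373 and 404 FPKM and macrophage and leukocyte markers to 415, 306, 291 and 417, all above the controls, which reached at most 329 and 278. Over all recovery libraries these sums ranged from 253 to 634 and from 148 to 457. Libraries outside these 4 also lay above the controls, such as Recovery week 13 library 2 at 471 and 457. In these 4 libraries the epicardial markers summed to between 1.07 and 2.27 FPKM, the atrial markers to between 5.98 and 12.3 and the fat markers to between 0.313 and 1.12, and the ranges over all recovery libraries were 1.07 to 3.44, 3.09 to 13.5 and 0.08 to 1.12.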
